A study of Mus musculus with 8 samples.

Results

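DNA replication and mitosis genes encode the proteins that copy chromosomes and part the copies, and 36 of them were followed in whole mouse gonads with and without Kdm6b, which encodes a demethylase of histone H3. The 36 genes were taken from a given list of names, 20 of them mitosis genes and 16 DNA replication genes, and every one was found by its symbol among the 48440 genes of the deposited tables. Polyadenylated RNA was sequenced from gonads of embryos at embryonic day 11.5, which had been sexed and genotyped, and each library pooled 2 pairs of gonads of 1 sex and genotype. Sex (XX or XY) was crossed with genotype (wild type or Kdm6b-null) to give 4 groups of 2 libraries, 8 in all. The tissue received no treatment, and the sources used here do not say which part of Kdm6b the null allele lacks. The labels give the cell type as pre-granulosa (XX) or pre-Sertoli (XY), yet they name the gonad as the tissue and describe no sorting of cells. The labels do not say whether pools of the same group were made from different litters, so the p-values below measure only the spread between these pools.

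A dividing cell copies its genome in S phase and separates the copies in mitosis, and each step has its own set of proteins. Before S phase the loaders Cdc6 and Cdt1 place the Mcm2 to Mcm7 helicase on origins, GINS activates it, and DNA polymerases then work with the sliding clamp Pcna, its loader and the enzymes that supply nucleotides. At the end of the cycle Cdk1 with cyclins B1 and B2 drives entry into mitosis, kinesins and kinetochore proteins move the chromosomes, and the checkpoint kinases hold anaphase until Cdc20 is free to act. In the early gonad, division of the coelomic epithelium supplies somatic precursors, and in XY embryos it increases after Sry is expressed.

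Replication and mitosis genes are known to be transcribed at different times of the cycle through different promoter elements, and the members' promoters are shown here because most members were high or low together in a pair of libraries described below. RefSeq promoters of build GRCm38.p6 (250 bases before to 50 bases after the start) were matched by symbol for 31 of the 36 members. No promoter was matched for Ccna2, Kif20a, Tpx2, Gins2 and Mcm4. The letters TTTGAA or TTTAAA, searched on both strands, are the core of the element called CHR that many mitosis genes share. They were present in 15 of 17 mitosis promoters (88.2%), 4 of 14 replication promoters (28.6%) and 30.6% of all 27025 genes with a promoter. Here and below each gene counts once, as holding the letters if any of its promoters did, so shares of promoters are shares of genes. The letters CCAAT were present in 15 of 17 mitosis promoters (88.2%), 9 of 14 replication promoters (64.3%) and 41.1% of all promoters. One of TTTCCCGC, TTTCGCGC, TTTGCCGC and TTTGGCGC, which are E2F-type letters, was present in 1 of 17 mitosis promoters (5.88%), 7 of 14 replication promoters (50%) and 2.6% of all promoters. Several of these strings overlap one another on opposite strands, as TTTGGCGC and GCGCGAAA do in Mcm6. A match of letters describes the sequence and is no measure of binding.

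The 200 bases before the start are printed for the 4 members that differed most between the XX wild type libraries (Mki67, Rrm2, Cdc20 and Plk1) and for the 3 members with a promoter that differed least (Rfc4, Mcm6 and Pola1), a choice made from their values. On GRCm38.p6 the windows are chr7:135716380-135716579 on the minus strand for Mki67, chr12:24708054-24708253 on the plus strand for Rrm2, chr4:118437344-118437543 on the minus strand for Cdc20 and chr7:122159235-122159434 on the plus strand for Plk1. Those of the other group are chr16:23127731-23127930 for Rfc4, chr1:128359706-128359905 for Mcm6 and chrX:93632156-93632355 for Pola1, all on the minus strand. Each is written 5′ to 3′ in the direction of transcription and ends just before the start, and capitals mark the CHR, CCAAT and E2F-type letters, with overlapping matches run together.
Mki67: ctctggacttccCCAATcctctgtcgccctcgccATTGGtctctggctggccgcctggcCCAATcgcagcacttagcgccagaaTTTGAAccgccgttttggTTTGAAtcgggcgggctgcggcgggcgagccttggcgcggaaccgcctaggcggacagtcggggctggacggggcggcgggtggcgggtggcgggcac
Rrm2: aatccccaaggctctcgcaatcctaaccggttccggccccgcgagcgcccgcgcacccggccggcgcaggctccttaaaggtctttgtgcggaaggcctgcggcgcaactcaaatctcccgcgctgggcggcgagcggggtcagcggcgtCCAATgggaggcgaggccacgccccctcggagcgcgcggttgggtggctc
Cdc20: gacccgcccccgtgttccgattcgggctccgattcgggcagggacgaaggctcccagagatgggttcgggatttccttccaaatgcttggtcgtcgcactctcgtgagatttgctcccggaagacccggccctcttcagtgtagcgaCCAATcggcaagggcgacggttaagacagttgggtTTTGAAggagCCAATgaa
Plk1: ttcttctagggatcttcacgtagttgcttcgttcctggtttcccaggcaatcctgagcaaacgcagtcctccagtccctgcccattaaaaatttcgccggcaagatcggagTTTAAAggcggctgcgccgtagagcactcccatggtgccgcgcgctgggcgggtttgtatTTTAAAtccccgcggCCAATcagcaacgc
Rfc4: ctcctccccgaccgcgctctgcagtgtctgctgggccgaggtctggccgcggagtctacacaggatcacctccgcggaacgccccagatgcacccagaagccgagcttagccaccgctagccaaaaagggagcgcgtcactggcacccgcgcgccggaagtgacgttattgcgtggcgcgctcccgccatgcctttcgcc
Mcm6: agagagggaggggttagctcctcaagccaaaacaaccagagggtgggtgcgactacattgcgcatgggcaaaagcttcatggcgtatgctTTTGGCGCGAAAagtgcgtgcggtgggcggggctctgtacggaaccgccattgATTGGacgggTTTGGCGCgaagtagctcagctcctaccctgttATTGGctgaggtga
Pola1: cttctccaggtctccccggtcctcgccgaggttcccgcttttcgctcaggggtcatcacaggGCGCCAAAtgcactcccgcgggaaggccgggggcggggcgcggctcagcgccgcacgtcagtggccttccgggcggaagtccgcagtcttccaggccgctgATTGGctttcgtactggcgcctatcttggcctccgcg
The 3 mitosis genes each hold both CHR and CCAAT letters in this window, Mki67 with CHR letters at -116 and -98 and Plk1 with them at -89 and -29, counted from the first base of each match to the start. In Cdc20 the CHR letters lie at -18, between CCAAT letters at -53 and -8. Rrm2 is a replication gene with CCAAT letters at -50 and with CHR letters only at the start itself, outside the printed window. Mcm6 holds E2F-type letters at -110, -106 and -47 and no CHR letters, Pola1 holds E2F-type letters at -138, and Rfc4 holds none of the letters searched. The members printed as differing least are all replication genes, and whether any letters go with the gap between the libraries was not tested.

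The libraries held 19107103 to 19828638 counts on genes, and 3 counts, the most that a value of 0 allows at this depth, were worth 2.91 to 3.09 normalized counts. Values below are the authors' normalized counts, and XX and XY libraries were normalized separately, so levels are compared within a sex unless stated. Kdm6b itself stood at 1249 and 1125 normalized counts in the XX null pools against 2218 and 2796 in their controls, and at 1238 and 1037 in the XY null pools against 3399 and 3181. Somatic gonad markers (Gata4, Nr5a1, Wt1, Lhx9, Emx2, Cbx2, Wnt4 and Nr2f2) were above 0 in all 8 libraries, with a summed level of 17307 to 27077 normalized counts. The XX wild type libraries stood apart from each other: the summed level of 8 adrenal cortex markers was 2226 normalized counts in replicate 1 and 397 in replicate 2, against 473 and 609 in XX Kdm6b-null. The share of mitochondrial genes was 3.12% of counts in the first of these pools, 2.55% in the second, and 1.90 to 2.22% elsewhere. In bulk RNA fewer dividing cells and less RNA per dividing cell cannot be told apart.

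In XY gonads the 36 genes were detected in all 4 libraries, at a median of 2666 normalized counts, and no gene of the list differed between Kdm6b-null and wild type beyond the spread of the pools. All 36 passed the filter on low values (a mean of at least 10 normalized counts), and limma with Benjamini-Hochberg adjustment at 0.05 called 0 of them different, against 0% of the 16821 genes tested. At an unadjusted p under 0.05 the count was also 0 of 36, against 4.96% of all genes. The 95% interval of the difference lay within 0.5 log2 units of no change for all 36 genes, a bound met by 8560 of the 16821 genes, and the widest limits were -0.41 and 0.39. The log2 fold change of Kdm6b-null over wild type was negative for 33 of 36 genes (background: 50% of all genes), with a median of -0.051 for mitosis genes and -0.037 for replication genes. Without XY Kdm6b-null replicate 1 the median became 0.0059 for mitosis genes and 0.061 for replication genes, and 10 of 36 were then negative.

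Among the mitosis genes of XY gonads, Mki67, which encodes the Ki-67 coat of mitotic chromosomes, was at 10947 and 11675 normalized counts in the wild type pools and 12184 and 11881 in Kdm6b-null. Both null libraries lay above both wild type libraries, by a small step: the log2 fold change was 0.09 (SE 0.085) and the adjusted p was 1.0 (limma). Groups that did not overlap in that direction were found for 1 of 36 members and for 16.6% of all genes. Top2a, the topoisomerase that untangles replicated chromosomes, was at 13390.5 and 12244 in wild type and 12806 and 12169 in Kdm6b-null, with overlapping groups and a log2 fold change of -0.037 (SE 0.092).

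Ccnb1 encodes cyclin B1, and it was at 2957 and 2992 normalized counts in wild type XY pools and 2663 and 2878 in Kdm6b-null, a log2 fold change of -0.10 (SE 0.074). Its kinase partner Cdk1 was at 2447 and 2346 in wild type and 1982 and 2440.5 in Kdm6b-null, a log2 fold change of -0.12 (SE 0.11). For Ccnb1 both null libraries lay below both wild type libraries, whereas for Cdk1 the low value came from null replicate 1 alone. Cenpe, a kinetochore motor that carries chromosomes to the spindle equator, had the largest difference of all members in XY: it was at 2848 and 2872 in wild type and 2608 and 2442 in Kdm6b-null. The log2 fold change of Cenpe was -0.18 (SE 0.072), with an unadjusted p of 0.050 and an adjusted p of 1.0 (limma). The groups of Cenpe did not overlap. The same held in that direction for Ccnb1, Kif23, Tpx2, Cenpf and Pola1, 6 of 36 members in all against 16.3% of all genes. For Cenpf the groups all but touched, at 3308.7 in wild type replicate 2 and 3307.7 in null replicate 1.

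None of the checkpoint genes passed the test in XY gonads. Bub1, which recruits checkpoint proteins to kinetochores, was at 2083 and 2052 normalized counts in the wild type pools and 1973 and 2082 in Kdm6b-null. Bub1b, the checkpoint protein that binds Cdc20, was at 3261 and 3058 (wild type) and 3078 and 3233 (null), and Ttk, the kinase that starts checkpoint signalling, at 1002 and 1159 (wild type) and 1041 and 971 (null). The null and wild type ranges of all of them overlapped. Plk1, the polo kinase of mitotic entry and spindle assembly, was at 1907 and 1882 in wild type and 1751 and 2029.8 in Kdm6b-null, and Cdc20, the activator of the anaphase-promoting complex, at 2628 and 2708 (wild type) and 2495 and 2727 (null). For both genes null replicate 1 was the lowest and null replicate 2 the highest of the 4 XY libraries.

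The motors and spindle proteins did not pass it either. Kif11, the motor that pushes the spindle poles apart, was at 2892 and 3050.5 in wild type and 3024 and 2887 in Kdm6b-null, and Kif20a, a motor of the central spindle, at 2772 and 2497 (wild type) and 2368 and 2720.4 (null). Kif23, a motor of cytokinesis, was at 1886 and 1916 in wild type and 1794 and 1774 in Kdm6b-null. Aurka, the kinase of the spindle poles, was at 1478 and 1486 (wild type) and 1326 and 1508 (null), and its activator Tpx2 at 3899.6 and 3832 (wild type) and 3578 and 3652 (null). Of these, Kif23 and Tpx2 had groups that did not overlap, with both null libraries below both wild type libraries.

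The replication genes of XY gonads lay within that spread as well, but they separated the Kdm6b-null libraries from each other. The clamp gene Pcna was at 4216 and 4091 normalized counts in the wild type pools and 3528 and 4235 in Kdm6b-null, a log2 fold change of -0.10 (SE 0.10). Mcm2, a helicase subunit, was at 5489 and 5750.2 in wild type and 5013 and 5935 in Kdm6b-null, a log2 fold change of -0.043 (SE 0.10). In both genes null replicate 1 was the lowest and null replicate 2 the highest of the 4 libraries. Mcm6, another helicase subunit, was at 6957 and 6242 (wild type) and 5638 and 6669.9 (null), a log2 fold change of -0.10 (SE 0.11). Gins2, a subunit of the helicase activator GINS, was at 883 and 867 in wild type and 820.3 and 1033 in Kdm6b-null, a log2 fold change of 0.073 (SE 0.13) that rested on null replicate 2. The adjusted p (limma) was 1.0 for each of these genes.

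Over the list, XY Kdm6b-null replicate 1 was the lowest of the 4 XY libraries for 25 of 36 members, 14 of them among the 16 replication genes, against 27.7% of all genes. Null replicate 2 lay above null replicate 1 for 15 of the 16 replication genes (background: 50.1% of all genes), with a median difference of 0.24 log2 units and Pola1 as the exception at -0.046. Tyms, which makes thymidylate, showed the largest gap of the list at 0.35 log2 units, from 1555 to 1977 normalized counts. The mitosis genes differed less between these libraries, with 13 of 20 higher in replicate 2 and a median of 0.074. The summed level of 11 erythroid markers, whose RNA comes from blood, was 70412 normalized counts in null replicate 1 and 214070 in null replicate 2, against 61437 and 105058 in XY wild type, with Hba-a2 at 0 in null replicate 1. Somatic gonad markers had a summed level of 21767 in null replicate 1 and 27077 in null replicate 2, with 7 of 8 higher in replicate 2 and a median difference of 0.58 log2 units. Among them Nr5a1, a nuclear receptor of gonad formation, was at 479.9 and 882 normalized counts and Wnt4, a signal of ovary development, at 1425 and 3089. Mesonephros markers were at 5478 and 7640 in sum, with 8 of 10 higher in replicate 2 and a median difference of 0.47. Of the other lists, macrophage markers were higher in replicate 2 for 7 of 10 and adrenal cortex markers for 4 of 6, whereas germ cell markers were for 3 of 12, endothelial markers for 3 of 10 and neural crest markers for 2 of 8. The part of these cells in the gap between the null libraries was not tested.

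**Figure D1:**
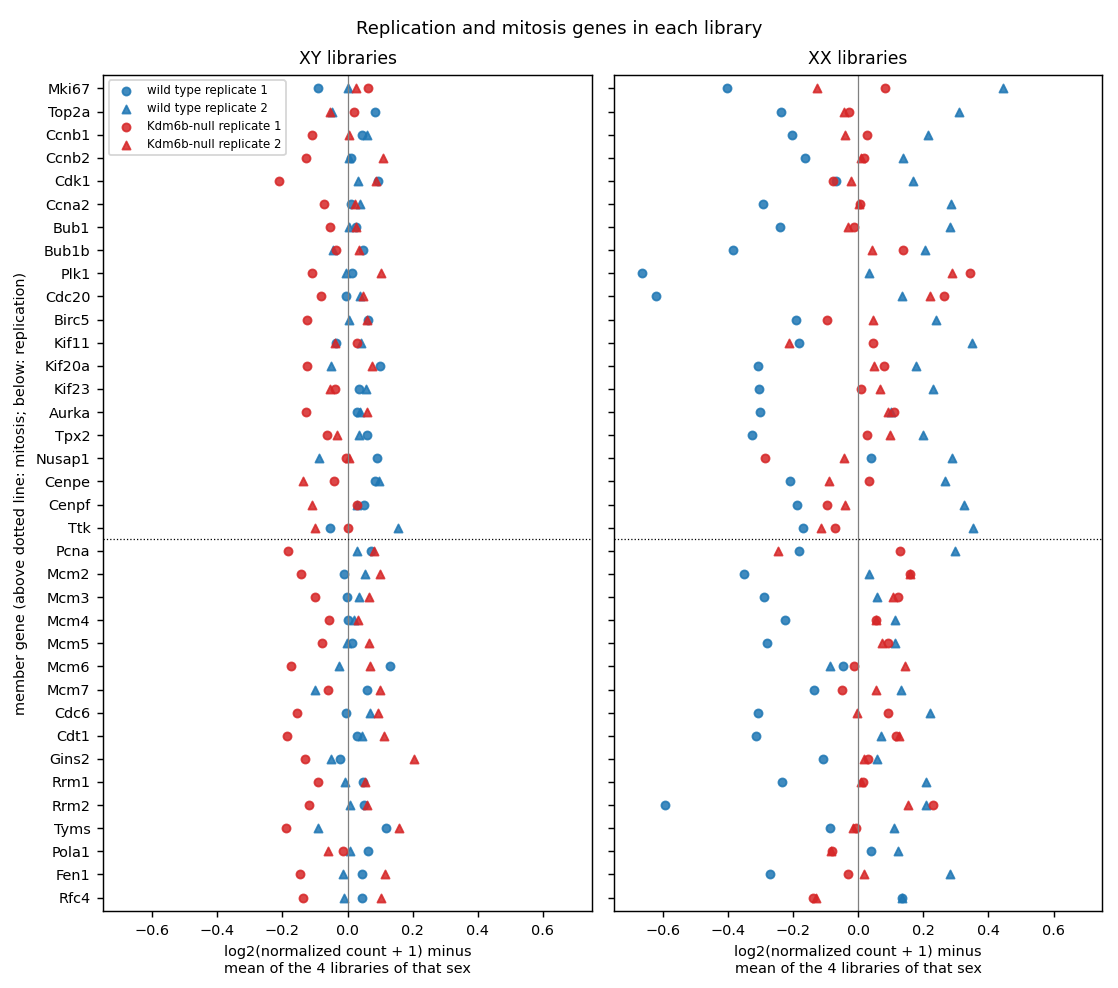
Each row is 1 member gene and each point 1 library, placed at its log2(normalized count + 1) minus the mean of the 4 libraries of that sex, with XY libraries in the left panel and XX libraries in the right panel. In XX the wild type replicate 1 points lie to the left and the wild type replicate 2 points to the right of the Kdm6b-null points for most genes, while the XY points stay close to their mean.

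In XX gonads the wild type libraries differed from each other across nearly the whole list, and the Kdm6b-null libraries mostly lay between them. Wild type replicate 2 was above wild type replicate 1 for 35 of 36 members, all 20 mitosis genes among them, against 53.6% of all genes. The median fold of replicate 2 over replicate 1 was 1.44 for mitosis genes and 1.29 for replication genes, and 1.02 over all 17028 genes tested. Replicate 1 was the lowest of the 4 XX libraries for 29 of 36 members (background: 36.4%) and replicate 2 the highest for 28 of 36 (background: 24.2%).

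The gap was widest for Mki67, at 9384 and 16874 normalized counts in the XX wild type libraries, a fold of 1.80. It was 1.74 for Rrm2, the regulated subunit of ribonucleotide reductase, 1.69 for Cdc20 and 1.62 for Plk1. A few replication genes stood outside this pattern. Mcm6 was at 6174 and 6001 normalized counts, a fold of 0.972, Rfc4, a subunit of the clamp loader, at 1026 and 1027, and Pola1, the catalytic subunit of DNA polymerase alpha, at 1603 and 1697. The other helicase subunits were not like Mcm6: Mcm2 was at 4229.9 and 5518, Mcm3 at 3918 and 4991, Mcm4 at 4268 and 5386, Mcm5 at 4403 and 5787 and Mcm7 at 5599.8 and 6735.

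These 2 libraries also stood apart in markers of other cells. Of the 8 adrenal cortex markers none was at 0 in either, and all 8 were higher in replicate 1, where Cyp11b1, an enzyme of corticosterone synthesis, was at 417 normalized counts against 7.08 in replicate 2. Germ cell markers had a summed level of 3095 in replicate 1 and 2144 in replicate 2, with 9 of 12 higher in replicate 1, and Ddx4, a germ cell helicase, was at 264 and 11.1. Erythroid markers ran the other way, with a summed level of 188473 in replicate 1 and 248158 in replicate 2 and 9 of 11 higher in replicate 2. Mesonephros markers were higher in replicate 1 as well, at 5077 against 3764 in sum, with 2 of 10 higher in replicate 2 and a median difference of -0.44 log2 units. So were macrophage markers, at 3189.9 against 2624, with 2 of 10 higher in replicate 2 and a median of -0.35. Somatic gonad markers had near sums of 17773 and 17307, yet 3 of 8 were higher in replicate 2 and the median was -0.36, with Nr5a1 at 610.2 and 313 normalized counts. Endothelial markers were higher in replicate 2 for 7 of 10 and neural crest markers for 4 of 8. In XX Kdm6b-null the summed levels were 3546 and 3099 for germ cell markers and 122546 and 116320 for erythroid markers. Of the germ cell sum, Kit alone gave 2347 and 2080 in Kdm6b-null, against 1070 and 1299 in wild type. The log2 fold change in XX was positive for 5 of 12 germ cell markers (background: 50.1% of all genes), with a median of -0.23. The part of the cells marked by all these lists, and of mitochondrial RNA, in the gap of the replication and mitosis genes was not tested.

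The XX genotype comparison therefore set tight null libraries against wild type libraries that lay on either side of them. Limma with Benjamini-Hochberg adjustment called 0 of 36 members different, against 0% of the 17028 genes tested. At an unadjusted p under 0.05 there were 2 of 36 members, Plk1 and Rfc4, against 14% of all genes. The log2 fold change of Kdm6b-null over wild type was positive for 9 of 20 mitosis genes and 11 of 16 replication genes (background: 50.1% of all genes), with medians of -0.026 and 0.068. When each library was scaled to the same total, 8 of 16 replication genes were positive and the medians became -0.091 and 0.0036. The 95% interval lay within 0.5 log2 units of no change for 12 of 36 genes and within 1 log2 unit for 33 of 36. Those bounds were met by 5315 and 11783 of the 17028 genes. Groups that did not overlap were found for 6 of 36 members with null above wild type (Plk1, Cdc20, Mcm2, Mcm3, Mcm6 and Cdt1; 27% of all genes) and for 3 with null below (Nusap1, Pola1 and Rfc4; 22.5% of all genes).

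Plk1 had the largest difference of the list. It was at 1181 and 1912 normalized counts in the XX wild type pools and 2372 and 2281 in Kdm6b-null, a log2 fold change of 0.63 (SE 0.23) with a 95% interval of 0.05 to 1.21. Both null libraries were above both wild type libraries, and the SD (n = 2) was 64.0 normalized counts in Kdm6b-null and 517 in wild type. The unadjusted p of Plk1 was 0.038 and its adjusted p 0.34 (limma). Cdc20 was at 1618 and 2735 in wild type and 2988 and 2901 in Kdm6b-null, a log2 fold change of 0.48 (SE 0.25) with an adjusted p of 0.43 (limma). Its null libraries also lay above both wild type libraries, close to wild type replicate 2 and far from replicate 1.

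Nusap1, a protein that bundles spindle microtubules, had the most negative difference of the list. It was at 2173 and 2583 normalized counts in the XX wild type pools and 1733 and 2052 in Kdm6b-null, a log2 fold change of -0.33 (SE 0.14) with an adjusted p of 0.37 (limma). The groups did not overlap, although null replicate 2 and wild type replicate 1 lay near each other. For Mki67, Top2a, Ccnb1 and Cdk1 the null libraries lay between the wild type ones or close to the lower one. Mki67 was at 13127 and 11343 normalized counts in Kdm6b-null, inside the wild type range given above, a log2 fold change of -0.044 (SE 0.29). Top2a was at 11541 and 16847 in wild type and 13339 and 13194 in Kdm6b-null, a log2 fold change of -0.072 (SE 0.20). Ccnb1 was at 2642 and 3527 (wild type) and 3102 and 2961 (null), a log2 fold change of -0.01 (SE 0.16) that was 0.0012 when libraries were centred on their medians. Cdk1 was at 2404 and 2831 in wild type and 2388 and 2481 in Kdm6b-null, a log2 fold change of -0.10 (SE 0.11), with 1 null library just below the lower wild type library.

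The other mitosis genes followed that order in XX, wild type replicate 1 low and wild type replicate 2 high. Ccna2, which encodes cyclin A2, was at 2425 and 3617 normalized counts in the wild type pools and 2978 and 2975 in Kdm6b-null. Ccnb2, which encodes cyclin B2, was at 1399 and 1724 (wild type) and 1589 and 1577 (null), and reads of its pseudogene Ccnb2-ps, at a mean of 127 over the 8 libraries, cannot be separated from it with certainty. Birc5, which encodes survivin of the chromosomal passenger complex, was at 1467 and 1976 in wild type and 1566 and 1728 in Kdm6b-null. Each of these null pairs lay inside the wild type range. Cenpf, a large kinetochore protein, was at 2977 and 4243 (wild type) and 3169.9 and 3297 (null), and Cenpe at 2366 and 3290.5 (wild type) and 2798 and 2574 (null). Kif11 was at 2782 and 4024 in wild type and 3259.5 and 2723 in Kdm6b-null, with null replicate 2 below both wild type libraries. Aurka was at 1219.5 and 1613 in wild type and 1623 and 1603 in Kdm6b-null, level with wild type replicate 2.

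Among the replication genes of XX gonads 4 of 16 were higher in both null libraries than in both wild type libraries, a share of the same order as the 27% over all genes, and none passed the test. They were Mcm2, Mcm3, Mcm6 and Cdt1. Mcm2 was at 6025 and 6021 normalized counts in Kdm6b-null, above the wild type values given before, a log2 fold change of 0.32 (SE 0.15) with an adjusted p of 0.41 (limma). Mcm3 was at 5219 and 5166 in Kdm6b-null and Mcm6 at 6316 and 7039, both also above their wild type libraries. Cdt1, the loader of the helicase, was at 999 and 1306 in wild type and 1347 and 1356 in Kdm6b-null. In Mcm3 and Cdt1 the null libraries exceeded wild type replicate 2 by little and replicate 1 by much. Mcm4, at 5177 and 5176, Mcm5, at 5702 and 5624, and Mcm7, at 5939 and 6391, lay between the wild type libraries.

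The genes of nucleotide supply and of the fork gave mixed differences in XX. Rrm2 was at 2543 and 4436 normalized counts in the wild type pools and 4501 and 4272 in Kdm6b-null, a log2 fold change of 0.38 (SE 0.26) with an adjusted p of 0.54 (limma). Its null libraries sat on either side of wild type replicate 2, and only wild type replicate 1 was apart. Rrm1, the large subunit of the same enzyme, was at 6336 and 8612 in wild type and 7536 and 7489.9 in Kdm6b-null. Pcna was at 3714 and 5180.0 in wild type and 4608 and 3551 in Kdm6b-null, a log2 fold change of -0.12 (SE 0.21). Pcna was the member on which the XX null libraries differed most, with replicate 2 lower by 0.38 log2 units and below both wild type libraries.

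Rfc4 was the member with the smallest unadjusted p in XX. It was at 1026 and 1027 normalized counts in the wild type pools and 849 and 855 in Kdm6b-null, so that both pairs were tight and far apart. The log2 fold change was -0.27 (SE 0.092), with a 95% interval of -0.50 to -0.04, an unadjusted p of 0.031 and an adjusted p of 0.33 (limma). The value was -0.27 whichever wild type library was left out. Rfc4 overlaps Eif4a2, a translation factor on the opposite strand at a mean of 9598 normalized counts, and since the sources used here do not give the strand setting of the counting, reads from the overlap cannot be told apart. Pola1 was at 1476 and 1473 in Kdm6b-null, below both wild type libraries given before. The other opposite-strand overlaps with a well expressed gene are Fen1 with Tmem258, Kif20a with Cdc23, Gins2 with Gse1, Mcm7 with Cops6 and Ap4m1, Ccna2 with Exosc9, Cdc20 with Elovl1 and Nusap1 with Oip5, the last gene being the lowest of them at a mean of 213 normalized counts. Further opposite-strand gene models overlap Fen1, Plk1, Top2a, Pola1, Mki67, Cenpf and Gins2, each at a mean of 36.6 normalized counts or less.

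**Figure D2:**
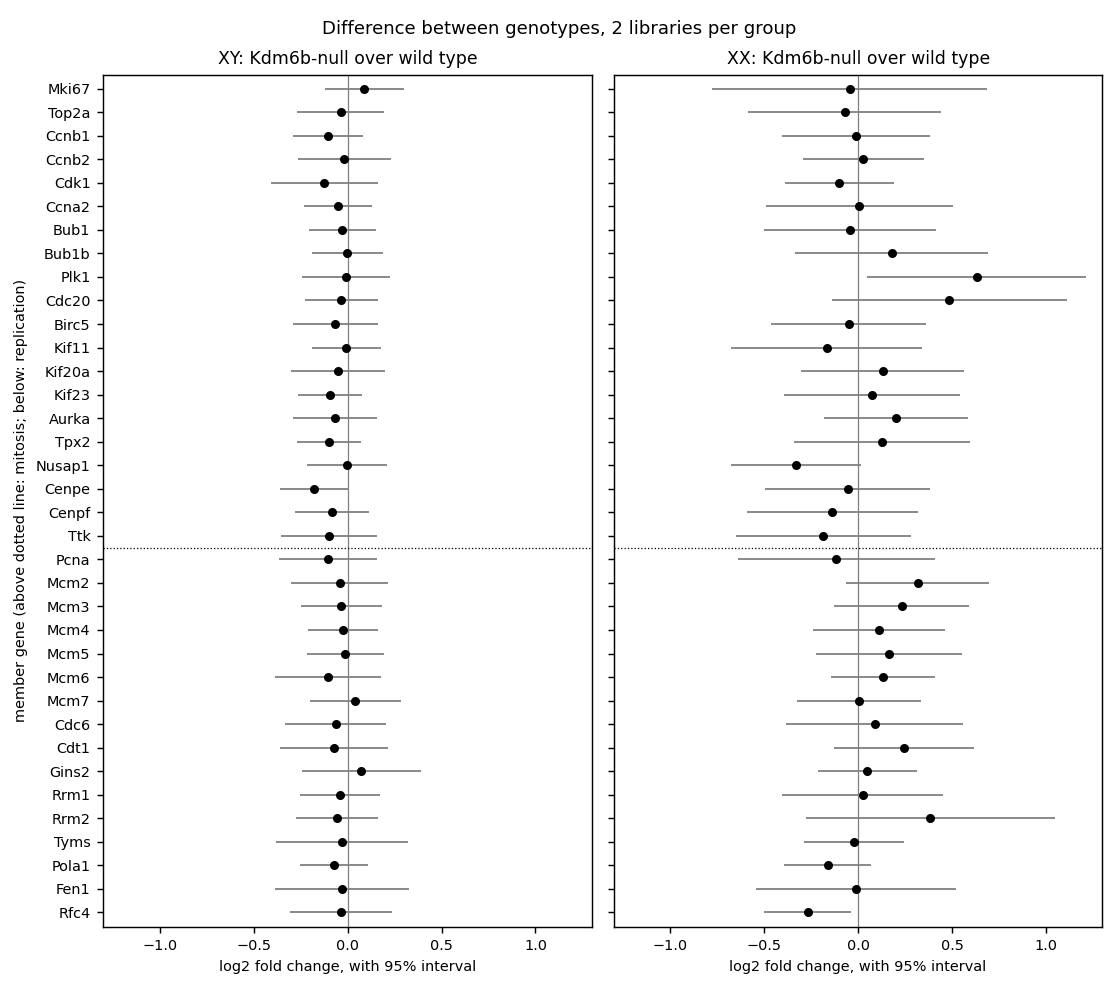
Points are log2 fold changes of Kdm6b-null over wild type from limma with 2 libraries per group, lines are 95% intervals, mitosis genes are above the dotted line and replication genes below it, with XY in the left panel and XX in the right panel. The XY intervals all lie within 0.5 of no change, while the XX intervals are wider and only those of Plk1 and Rfc4 leave out 0 before adjustment.

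Because the XX wild type libraries lay apart, the genotype difference depended on which of them was used. With wild type replicate 2 left out, limma called 15 of 36 members higher in Kdm6b-null and 0 lower, against 13.8% of the 17028 genes tested called higher (2344 genes) and 1145 genes called lower. They were 8 mitosis genes (Plk1, Cdc20, Bub1b, Aurka, Tpx2, Kif20a, Kif23 and Ccna2) and 7 replication genes (Rrm2, Mcm2, Cdt1, Mcm3, Mcm5, Cdc6 and Mcm4). Plk1 then had a log2 fold change of 0.98 (adjusted p = 0.0022, limma), Cdc20 of 0.86 and Rrm2 of 0.79. With wild type replicate 1 left out instead, 0 of 36 members were called, against 2.17% of all genes (370 genes), and Plk1 was at 0.28, Cdc20 at 0.11 and Rrm2 at -0.016. Over all alternatives the limma adjusted p of XX Plk1 ran from 0.0022 to 0.97. In these fits the lone wild type library is assumed to vary as little as the null pair does. A chi-square of counts between the XX null libraries had a median of 0.155 over replication members and 1.78 over mitosis members. Counting noise alone gives 0.455, and the replication members ran from 1.03e-05 to 136, so only their median lay below it. Whether that median is lower than counting noise would give over 16 genes was not tested. The summed level of endothelial markers in XX was 12376 and 13839 normalized counts for wild type and 18811 and 18604 for Kdm6b-null, and that of somatic gonad markers 17773 and 17307 in wild type and 22724 and 21738 in Kdm6b-null. The part of these cells in the calls was not tested. The median over mitosis genes was 0.21 against replicate 1 and -0.24 against replicate 2, and over replication genes 0.26 and -0.089. Only Nusap1, Pola1 and Rfc4 were lower, and only Plk1, Cdc20, Mcm2, Mcm3, Mcm6 and Cdt1 higher, in Kdm6b-null against either wild type library.

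Whether the genotype difference itself differed between the sexes was tested as the XY difference minus the XX difference, in which a scale factor between the tables cancels. Limma called 0 of 36 members, against 0% of the 16943 genes tested, and 0 of 36 had an unadjusted p under 0.05, against 8.41% of all genes. Plk1 had the largest value, -0.64 log2 units (SE 0.28), with a 95% interval of -1.29 to 0.02 and an adjusted p of 0.60 (limma). Cdc20 followed at -0.52, Rrm2 at -0.44, Mcm2 at -0.36 and Cdt1 at -0.32, so that the XX difference was the higher one, and Nusap1 was at 0.33. The intervals of 33 of 36 genes lay within 1 log2 unit, a bound met by 10286 of the 16943 genes. The difference averaged over both sexes was called for 0 of 36 members and for 6 of the 16943 genes (0.0354%). The interval of that average lay within 1 log2 unit of no change for all 36 genes and within 0.5 for 33 of them. Over all 16943 genes these bounds were met by 14468 and 9869.

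In the authors' deposited table of their DESeq2 comparisons, adjusted p was under 0.05 for 0 of 36 members in either sex, against 0.402% of genes in XY and 2.77% in XX. The smallest adjusted p among the members in that deposited table was 0.16 for Plk1 in XX, beside a log2 fold change of 0.59, and every member stood at 1.0 in XY.

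The balance between replication and mitosis genes within each library was described by the median log2 level of the 16 replication genes minus that of the 20 mitosis genes. In XX it was 0.44 and 0.68 for wild type and 0.69 and 0.56 for Kdm6b-null, and in XY 0.59 and 0.60 for wild type and 0.52 and 0.66 for Kdm6b-null. The null values lay inside or next to the wild type range in XX and on either side of it in XY. The lowest value belonged to XX wild type replicate 1, in which both classes of genes were low.

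**Figure D3:**
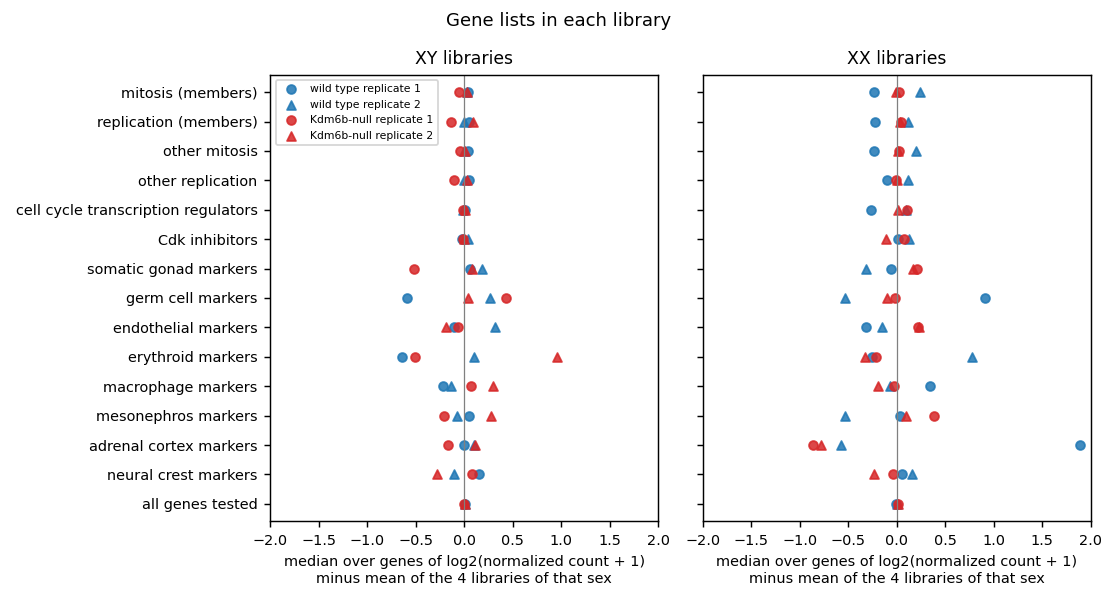
Each row is a list of genes and each point 1 library, placed at the median over the list of log2(normalized count + 1) minus the mean of the 4 libraries of that sex, with XY in the left panel and XX in the right panel. The member lists and the other replication and mitosis genes spread most in XX wild type, and adrenal cortex markers reach 1.88 in XX wild type replicate 1.

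Levels between members were compared per kilobase of exon, with the exons of all annotated transcripts of a gene merged. That length can exceed the length of the transcripts present, as may be so for Rrm1 at 11012 bases. The order below therefore depends in part on the annotation and is no measure of transcript number. Over the 4 XY libraries Pcna was highest, at 1674 normalized counts per kilobase, followed by Mcm4 at 1422, Cdc20 at 1413, Top2a at 1404, Mcm6 at 1367 and Rrm2 at 1359. All 4 Pcna values lay above those of Mcm4, although reads of the pseudogene Pcna-ps2, at a mean of 345 normalized counts, cannot be separated from Pcna with certainty. The libraries of the genes from Mcm4 to Rrm2 overlapped, so their order is not resolved. Mki67 stood at 1160 and was followed by Ccnb2 at 997 and Plk1 at 861. The lowest were Ttk at 212, Cenpf at 210, Cdc6 at 208, Pola1 at 173 and Fen1, the flap nuclease of Okazaki fragments, at 118. The Mcm3 to Mcm7 subunits, which form 1 complex with Mcm2, lay between 1282 and 1422, while Mcm2 was at 797. The exon length of Mcm2 was 6956 bases, against 3589 (Mcm4) to 4666 (Mcm6) for the others. Without division by length Mcm2, at 5547 normalized counts, lay between Mcm5 at 5263 and Mcm7 at 5676. By the count of reads alone the members ranked high among expressed genes, with a median percentile of 90.3 in XY and 90.95 in XX and a lowest member, Fen1, at 44.0 in XY.

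**Figure D4:**
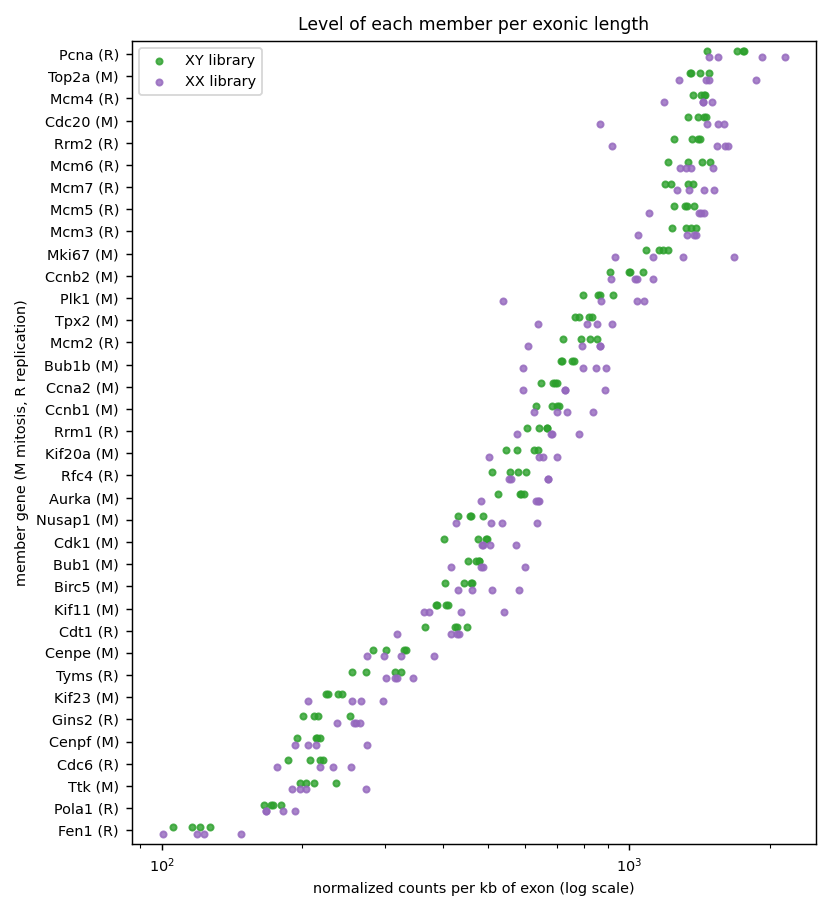
Each row is 1 member, marked M for mitosis or R for replication, and each point is 1 library at its normalized counts per kilobase of exon on a log axis, with XX and XY libraries normalized separately. Members run from Pcna at the top to Fen1 at the bottom, and low XX points for Cdc20, Rrm2 and Plk1 belong to wild type replicate 1.

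The other genes of these pathways were taken from lists of 45 replication genes, 50 mitosis genes, 19 cell cycle transcription regulators and 7 Cdk inhibitors, of which 5 inhibitors passed the filter. None was called by limma in either sex. In XY the log2 fold change was positive for 12 of 45, 15 of 50, 11 of 19 and 3 of 5, against 49.98% of all genes, and null replicate 1 was the lowest XY library for 32 of 45 other replication genes and 25 of 50 other mitosis genes, against 27.7% of all genes. In XX the log2 fold change was positive for 21 of 45, 30 of 50, 16 of 19 and 1 of 5, against 50.1% of all genes. Between the XX wild type libraries, replicate 2 was above replicate 1 for 41 of 45 other replication genes, 48 of 50 other mitosis genes and 17 of 19 regulators, against 53.6% of all genes, so the gap described for the members was present in these lists too.

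Orc1, the largest subunit of the origin recognition complex, was lower in both null libraries than in both wild type libraries in each sex. It was at 629 and 691 normalized counts in wild type XY pools and 468 and 505 in XY Kdm6b-null, a log2 fold change of -0.44 (SE 0.10) with an unadjusted p of 0.0065 and an adjusted p of 0.73 (limma). In XX it was at 592 and 642 in wild type and 462 and 514 in Kdm6b-null, a log2 fold change of -0.34 (SE 0.12) with an adjusted p of 0.33 (limma). Neither value passed the threshold. Orc5, another subunit of that complex, had a log2 fold change of -0.28 (SE 0.10) in XX, and Ccne2, which encodes cyclin E2 of S phase entry, of -0.20 (SE 0.087) in XY. None of these genes is among the 36 members, and they were picked from their list for the smallest p.

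Among the other mitosis genes Kifc1, a minus-end spindle motor, had a log2 fold change of 0.19 (SE 0.072) in XY, and Pttg1, which encodes securin, of 0.23 (SE 0.094). In XX those with the smallest p were Espl1, which encodes separase, at 0.32 (SE 0.19) and Ckap2, a spindle protein, at -0.23 (SE 0.14). Of the transcription regulators, the repressor E2f7 had a log2 fold change of 0.47 (SE 0.21) in XX and Tfdp2, a partner of E2F proteins, of 0.36 (SE 0.15), while in XY Lin52 and Mybl2 of the complexes that act on CHR elements had values of 0.21 (SE 0.16) and 0.086 (SE 0.075). In XX, wild type replicate 2 was above replicate 1 for 17 of 19 regulators and 48 of 50 other mitosis genes, against 53.6% of all genes. The XX differences of E2f7, Tfdp2 and Espl1 were not tested apart from that gap. Cdkn1b, which encodes the Cdk inhibitor p27, was at 989 and 1079.6 normalized counts in wild type XY pools and 924 and 835 in Kdm6b-null, a log2 fold change of -0.23 (SE 0.095), and its value in XX was -0.14 (SE 0.099). Cdkn1a, which encodes the inhibitor p21, was at -0.15 (SE 0.17) in XX, and Cdkn2c, an inhibitor of Cdk4 and Cdk6 with few counts, at 0.57 (SE 0.28) in XY.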

How the data were processed

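Polyadenylated RNA of 8 libraries was measured by sequencing, with groups and replicate numbers taken from the sample titles and 0 value columns left without a sample. The build GRCm38 (mm10) and the tools DESeq2 2.11.40.8, featureCounts 2.0.8, STAR 2.7.11 and cutadapt 4.9 are named in the submitters' processing notes. Annotation release, strand setting, handling of reads with several matches, and filters were not given in the sources used here. Per gene the authors deposited a signal, the count divided by 1 size factor per library, with XX and XY normalized in separate tables. Within each sex the authors' deposited comparison tables also hold, for the null against the control, log2 fold changes and p-values with their adjusted p-values. They also hold score columns (the standard error and the Wald statistic), per the file headers, and the deposited XX table has no header, so its columns were read in the order of the XY table and checked against the normalized counts. In each library all nonzero values were whole multiples of 1 step, which was read as 1 count and used for depth and for the limit at 0. A chi-square of these counts between the replicates of a group had a median of 1.25 to 4.28 over all genes tested, against 0.455 for counting noise alone, so all 8 libraries were kept as separate samples.

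With R 4.3.3, limma 3.58.1 was run for all tests on log2(normalized count + 1), using a variance trend and Benjamini-Hochberg adjustment over all genes tested at 0.05. On this scale the change of a gene with low counts is understated. Genes with a mean of at least 10 over the libraries of a sex were kept, and each sex was fitted alone with genotype as the only term. The difference between sexes and the average over both came from 1 fit of the 8 libraries. No model of counts was run on these values, and the authors' deposited DESeq2 comparisons are the model of counts given here. The limma steps were tested on simulated data. Intervals are at 95%, and the intervals and the limit of 3 counts at 0 leave out error that amplification added. Gene positions came from the authors' deposited XY comparison, and overlaps were taken from those positions. Exon lengths came from GENCODE annotation of GRCm38, with all exons of a gene merged. The members and all lists were chosen with earlier results of these data known. Values in every library were given for Mki67, Top2a, Ccnb1, Cdk1, Pcna and Mcm2, and for the 3 replication and 3 mitosis members with the largest difference in XY, in XX and between the sexes. Of other pathway lists the 2 genes with the smallest p in each sex were named, since none passed the threshold. Library values of the other members, and the choice of promoters, came after the values were seen. The erythroid marker Ahsp was not matched and not used. Alternatives were other pseudocounts (0.5 and 8), no filter, a mean of at least 50, other scalings, no variance trend, a term for the replicate number, all libraries in 1 fit and each library left out.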

Additional observations from a re-analysis of the deposited data

How the results depend on the processing

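No member passed the threshold under any alternative that kept all libraries, in either sex, in the difference between sexes or in the average. Genes called over the whole table were 1 in XY without a variance trend and 10 in XX with all 8 libraries in 1 fit. With the replicate block they were 23 in XY, 2 in XX and 0 in the average. For the average, 6 genes were called, against 1 with no filter, 1 at a mean of at least 50 and 2 with no variance trend. The labels give each group replicates 1 and 2, but deviations of same-numbered libraries correlated at 0.245 in XY and -0.062 in XX, with only 2 pairs per sex. Whether the numbers pair the libraries is thus undecided, they were treated as unpaired, and the block called 0 members in any comparison. XX Ccnb1 changed sign, to 0.0012, when libraries were centred on their medians.

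Leaving out 1 library at a time gave 0 to 2 genes called in XY, 0 to 3489 in XX, 0 to 29 for the difference and 0 to 1261 for the average, and 0 to 15 members called in XX and 0 to 3 in the average. The highest of these counts in XX, in the average and in the difference came without XX wild type replicate 2, and both extremes of the difference's median without an XX wild type library. Median log2 fold changes ran from -0.098 to 0.0059 (mitosis, XY), -0.15 to 0.061 (replication, XY) and -0.24 to 0.21 (mitosis, XX), and the mitosis median of the difference from -0.30 to 0.12. Signs changed in XY for Top2a (-0.10 to 0.028), Cdk1 (-0.27 to 0.0265), Mcm2 (-0.16 to 0.079), Mcm6 (-0.225 to 0.017), Pcna (-0.24 to 0.028) and Gins2 (-0.094 to 0.24). In XX they changed for Mki67 (-0.47 to 0.38), Top2a (-0.34 to 0.20), Ccnb1 (-0.22 to 0.20), Cdk1 (-0.22 to 0.018), Pcna (-0.36 to 0.12) and Rrm2 (-0.016 to 0.79). The cause was not tested.

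With 2 pools per group the spread rests on few degrees of freedom, so differences smaller than the intervals given were not detectable. The lowest value of a member in any library was 244 normalized counts (Fen1). A chi-square of counts between replicates had a median over the 36 members of 133 in XX wild type and 13.4 in XY Kdm6b-null. It was 1.18 in XY wild type and 1.04 in XX Kdm6b-null, against 0.455 for counting noise alone. The part of counting error in the intervals themselves was not tested.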

Other observations

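The promoter letters searched for the members were also counted in the 2 larger pathway lists, with RefSeq promoters of GRCm38.p6. As before, each gene counts once, as holding the letters if any of its promoters did. CHR letters (TTTGAA or TTTAAA on either strand) were present in 29 of 43 promoters of the other mitosis genes (67.4%) and in 9 of 36 of the other replication genes (25.0%), against 30.6% of all promoters. CCAAT letters were present in 29 of 43 (67.4%) and 19 of 36 (52.8%), against 41.1%. E2F-type letters were present in 4 of 43 (9.3%) and 10 of 36 (27.8%), against 2.6%. Promoters that held CHR and CCAAT letters together were 22 of 43 (51.2%) among the other mitosis genes and 5 of 36 (13.9%) among the other replication genes, against 13.4% of all promoters.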
